A study of Mus musculus with 2 samples.

Results

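The genes described here are Tnf and 8 genes around it in the NF-kB response. These are the cytokine Il6, the IkB-family genes Nfkbia, Nfkbiz and Nfkbid, and the deubiquitinase gene Tnfaip3. The others are the subunit genes Rel and Nfkb1 and the survival gene Bcl2a1a. All were taken by symbol, 9 of 27998 listed genes, and read in 11934 wild-type (WT) and 14619 IL31RAKO cells of mouse skin. Both groups were C57Bl/6 mice, one wild-type and the other IL31RAKO, which lacks the IL-31 receptor alpha chain, and both were treated with a house dust mite ointment (Biostir) 2 times a week for 3 weeks, after a 2% SDS solution. Live CD45+ cells, the leukocytes of the skin, were sorted from 4 pooled mice per genotype and run as 1 droplet 3′ library each, so each group is 1 sample and mice cannot be told apart. The series asks what IL-31 contributes to the skin inflammation of this dermatitis. No untreated skin was analysed here.

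NF-kB is a family of dimeric transcription factors, built from subunits such as c-Rel and p105/p50, that is held in the cytoplasm by inhibitor proteins of the IkB family. Receptors for TNF, interleukin-1 and microbial products lead to the breakdown of those inhibitors. The freed dimers switch on inflammatory genes, TNF and IL-6 among them, and genes that feed back on the response. These encode the brakes IkB-alpha (Nfkbia) and A20 (Tnfaip3), and the nuclear IkB proteins IkB-zeta (Nfkbiz) and IkB-NS (Nfkbid). Tnf is an early-response gene, and both Tnf and Il6 are made by several kinds of activated skin leukocyte.

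The promoters of 5 genes are shown by their NF-kB sites, because feedback by these genes is known to run through NF-kB. Promoter windows of 300 bases, from 250 bases before to 50 after the start, came from RefSeq on GRCm38.p6, and 7 of the 9 genes had one. The published NF-kB consensus, searched on both strands, was found in windows of 5 of these 7 genes (Il6, Nfkbia, Nfkbid, Tnfaip3 and Rel). It was found in a window of 5.14% of all 27025 genes in that table. Each sequence below is written 5′ to 3′ in the direction of the gene, with the bases of a match in capitals. The Il6 window is chr5:30012864-30013163, plus strand, and the Nfkbia window is chr12:55492598-55492897, minus strand.
Il6: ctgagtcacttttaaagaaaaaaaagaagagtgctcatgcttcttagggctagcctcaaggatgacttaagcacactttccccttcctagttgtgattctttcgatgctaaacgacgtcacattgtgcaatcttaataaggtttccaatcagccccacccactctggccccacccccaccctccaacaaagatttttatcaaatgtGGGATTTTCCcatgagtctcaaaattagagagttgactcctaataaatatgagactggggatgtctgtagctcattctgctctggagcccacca
Nfkbia: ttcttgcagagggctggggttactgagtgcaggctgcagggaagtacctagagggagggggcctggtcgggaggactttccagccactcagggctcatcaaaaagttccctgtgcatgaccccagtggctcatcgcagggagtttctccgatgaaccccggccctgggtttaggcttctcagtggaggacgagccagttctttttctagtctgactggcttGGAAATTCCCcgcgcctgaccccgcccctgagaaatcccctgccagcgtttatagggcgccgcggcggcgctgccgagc
For the other 3 genes each match is shown in 30 bases of its window, which is chr10:19015361-19015660, minus strand, for Tnfaip3, chr7:30422156-30422455, plus strand, for Nfkbid and chr11:23770920-23771219, minus strand, for Rel.
Tnfaip3, upstream match: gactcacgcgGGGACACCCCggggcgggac
Tnfaip3, downstream match: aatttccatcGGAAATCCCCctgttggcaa
Nfkbid, upstream match: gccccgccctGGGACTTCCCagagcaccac
Nfkbid, downstream match: gggccgaacaGGAATTCCCCgtgcgcgggg
Rel: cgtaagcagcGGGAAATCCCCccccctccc
The Il6 match lay 44 to 35 bases before the start and the Nfkbia match 29 to 20 bases before it. The Rel stretch holds 2 overlapping matches, one of which fits the consensus on both strands. Nfkbid has 3 windows in the table and Tnfaip3 has 2, of which 1 each held matches. The Tnf and Bcl2a1a windows held no match to these letters. A match describes the letters only.

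Cells were assigned to classes by detected marker genes, and levels are given in CPM, the usual counts-per-million scale, computed from UMIs summed over a class. A UMI, or unique molecular identifier, marks 1 captured RNA molecule. In all, 13 classes had 50 or more cells in each library and are compared. Brackets hold exact 95% intervals that cover counting error only: they hold no variation between mice, pools or cells. With 1 library per group there is no replicate check and no test. A pair of a gene and a class was counted as past the fold when the IL31RAKO/WT ratio was at least 1.5-fold from 1, its interval left out 1 and the class held 50 or more UMIs of the gene. The free-RNA level of a gene is its CPM in barcodes with 10 to 50 UMIs, which hold RNA outside cells. These barcodes held 235401 UMIs in WT and 189990 in IL31RAKO. For genes low in free RNA, such as Tnf, Il6, Rel, Nfkbid and Bcl2a1a, that level thus rests on few UMIs. It is given without an interval, so a class level near it is not settled as above or below.

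The libraries held 57000499 WT and 71333292 IL31RAKO UMIs, and kept cells had medians of 2918.5 and 3181 UMIs. Kept cells shared the label CD45+, and its gene Ptprc had a UMI in 72.3% of WT and 75.1% of IL31RAKO cells. Of the cells, 68.7% and 71.7% fell into a class. The libraries shared 247 cell barcodes, 2.07% of WT and 1.69% of IL31RAKO cells. With barcodes drawn independently in each library, 236.6 shared barcodes would be expected. Neutrophil-like cells were 2.02% of WT and 7.26% of IL31RAKO cells. The 3′ tags of Il31ra do not check the knockout, since they can lie outside the deleted part. Doublets were kept, and removing them is among the alternatives.

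Among the 13 classes, basophil-like cells (75 WT and 118 IL31RAKO cells) had the highest level of 6 of the 9 genes in each library: Tnf, Il6, Nfkbia, Nfkbiz, Nfkbid and Tnfaip3. Basophils are rare granulocytes armed with the IgE receptor. All 6 basophil markers, Mcpt8, Cd200r3, Fcer1a, Ms4a2, Gata2 and Cpa3, were detected in the class in both libraries. These genes chose the class, so their presence is no separate check of its name. In the class they summed to 7089 CPM in WT and 7734 in IL31RAKO. Mast cell markers summed to 548 and 578 CPM there, of which Cpa3, a gene of both lists, gave 538 and 562. Mast cell-like cells, too few to be compared, had 6 Tnf UMIs in WT, all in 1 of the 4 cells, which is 667 CPM [245, 1452]. They also had 9 Tnfaip3 UMIs in WT, in 2 cells, which is 1000 CPM [457, 1899]. Both WT levels were above those of basophil-like cells. In IL31RAKO mast cell-like cells held 0 Tnf UMIs and 4 Tnfaip3 UMIs (245 CPM [66.9, 628]). The basophil-like class was highest for these 6 genes under the 7 alternatives for which the order was run.

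**Figure D1:**
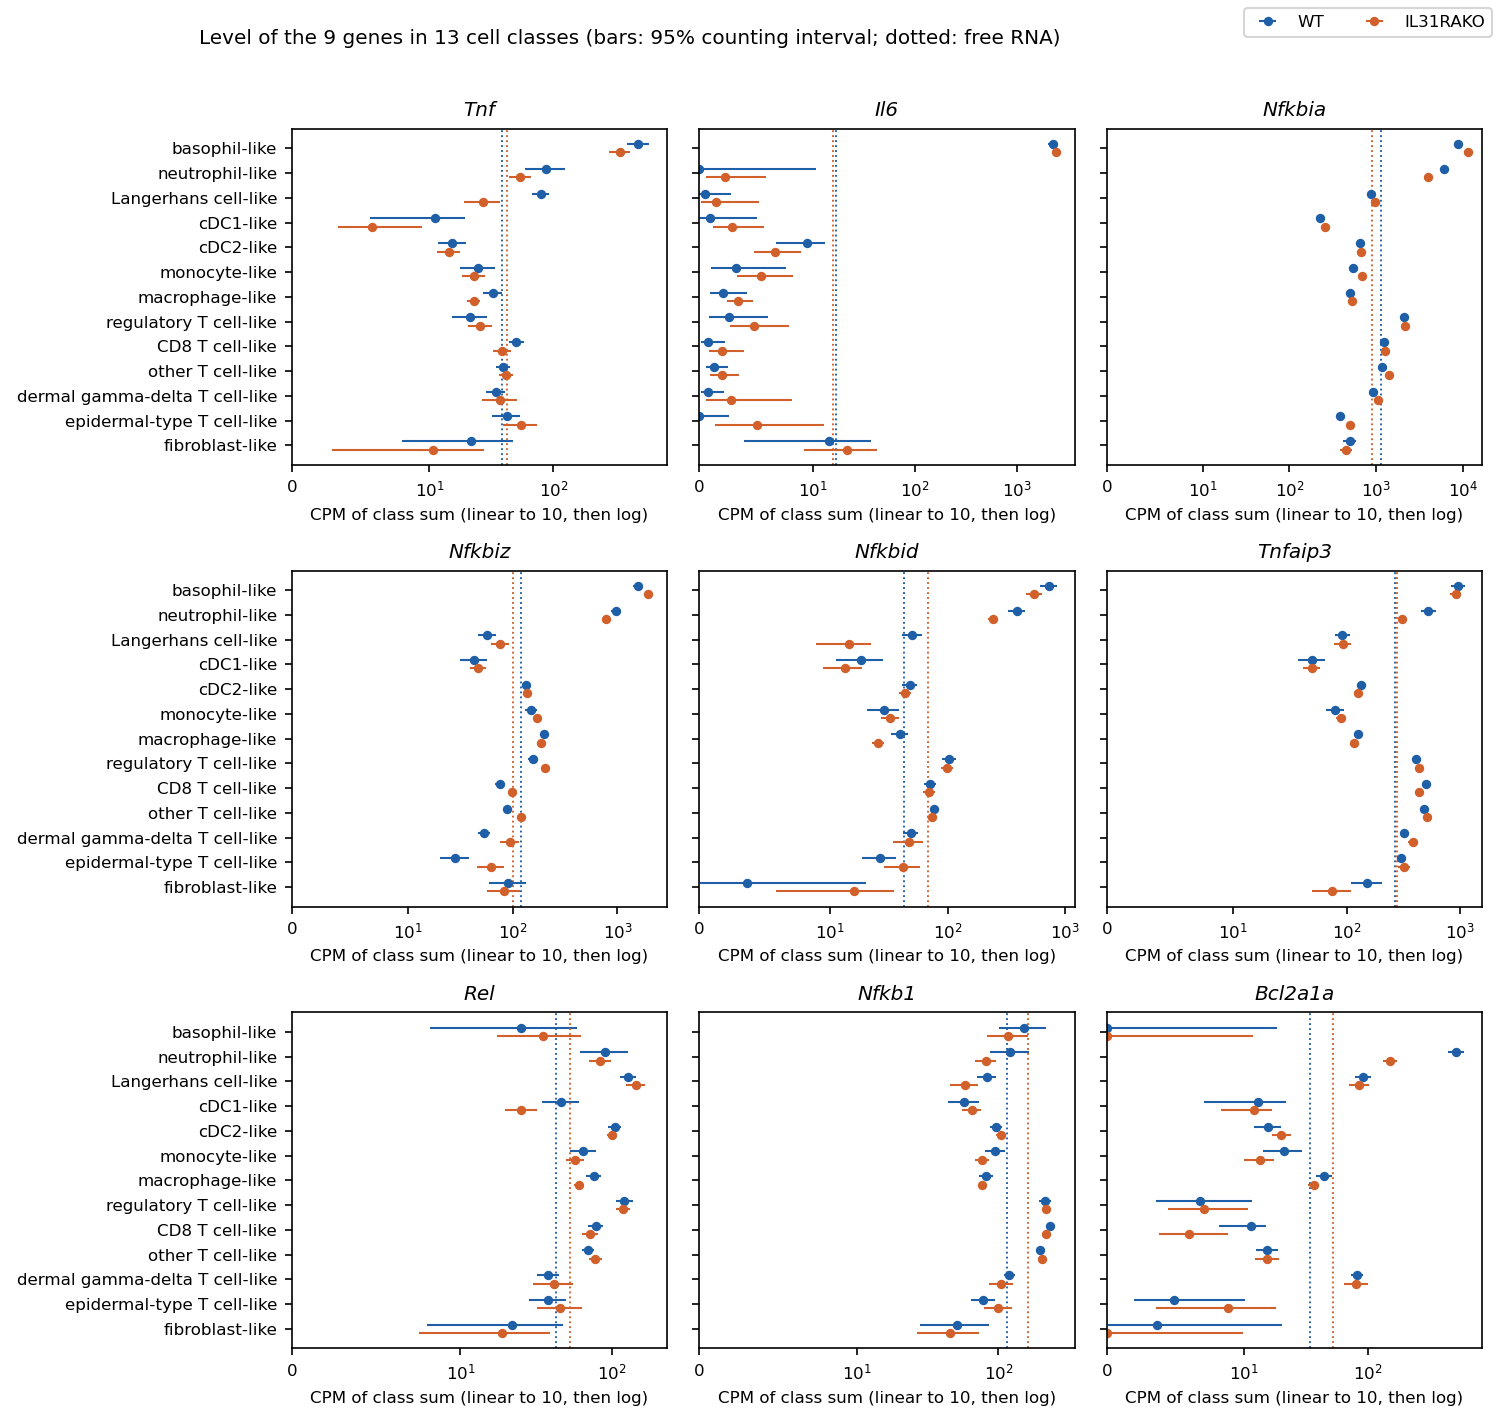
Level of each of the 9 genes (CPM of the class sum, linear to 10 and logarithmic above) in the 13 classes, with WT in blue, IL31RAKO in orange, bars for the 95% counting interval and dotted lines for the free-RNA level of each library. Basophil-like cells are at the right edge for 6 genes, while Rel, Nfkb1 and Bcl2a1a are highest in other classes.

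Tnf encodes tumour necrosis factor, the cytokine that gives the pathway its best-known input. In basophil-like cells Tnf was 483 CPM [391, 590] in WT and 343 [281, 414] in IL31RAKO. The next class was at 86.8 in WT (neutrophil-like) and 54.4 in IL31RAKO (epidermal-type T cell-like), which put basophil-like cells 5.57-fold and 6.30-fold above it. The basophil interval stood apart from all others in both libraries, whereas most of the other neighbours in the order overlapped. Tnf lay at 11.1 to 86.8 CPM in the other 12 classes of WT and at 5.84 to 54.4 in IL31RAKO, around the free-RNA levels of 38.2 and 42.1, so that 6 WT and 3 IL31RAKO classes, the basophil-like one included, were above free RNA. Few Tnf UMIs set these free-RNA levels, so the side of classes near them is not settled. At least 1 Tnf UMI was found in 38.7% of WT and 28.0% of IL31RAKO basophil-like cells. With each cell thinned to 1000 UMIs, and cells under 1000 UMIs left out (3 in each library), the shares were 26.4% and 22.6%. The class, small as it is, held 5.64% of WT and 6.31% of IL31RAKO Tnf UMIs in cells.

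Il6 encodes interleukin-6, a cytokine of the acute-phase response. In basophil-like cells it was 2234 CPM [2031, 2452] in WT and 2444 [2274, 2622] in IL31RAKO, a ratio of 1.09 [0.972, 1.23]. Of the 13 compared classes the next in order, fibroblast-like, was at 14.5 and 21.5, so the basophil level was 154-fold and 114-fold above it. Classes too small to be compared lay between them. Endothelial cell-like cells (57 WT and 22 IL31RAKO cells) had 209 CPM [163, 265] in WT and 82.1 [41.0, 147] in IL31RAKO, both above free RNA, and held 8.73% of the WT Il6 UMIs, with 38 of their 69 WT UMIs in 1 cell. Mature dendritic cell-like cells had 29.5 [13.5, 56.0] in WT, with 7 of 9 UMIs in 1 cell, and 2.02 in IL31RAKO. Of the other 12 compared classes, only the fibroblast-like one in IL31RAKO lay above the free-RNA level (17.0 in WT and 15.8 in IL31RAKO), on 8 UMIs, and neutrophil-like cells held 0 Il6 UMIs in WT and 4 in IL31RAKO.

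Over all kept cells Il6 was 17.1 CPM in WT and 25.9 in IL31RAKO, a ratio of 1.51, and it alone of the 9 genes was past the fold there, where 4.97% of all genes were higher and 7.53% lower.

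Basophil-like cells were 0.628% of WT cells and held 56.2% of the Il6 UMIs, and they were 0.807% of IL31RAKO cells and held 48.5%. A further 13.2% and 34.7% lay in cells outside the class with 2 or more basophil markers. Of the cells with no basophil marker, 0.804% of WT and 1.20% of IL31RAKO had an Il6 UMI, against 58.7% of WT and 71.2% of IL31RAKO basophil-like cells. Thinned to 1000 UMIs these last shares were 41.7% and 50.4%. Within the class Il6 was uneven. The median cell had 1 UMI in WT and 2 in IL31RAKO, the highest had 58 and 46, and the top 8 WT and top 12 IL31RAKO cells held 61.0% and 48.1% of the UMIs. Mast cell-like cells, 4 in WT and 13 in IL31RAKO, held 0 and 4 Il6 UMIs, the 4 in 1 cell.

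**Figure D2:**
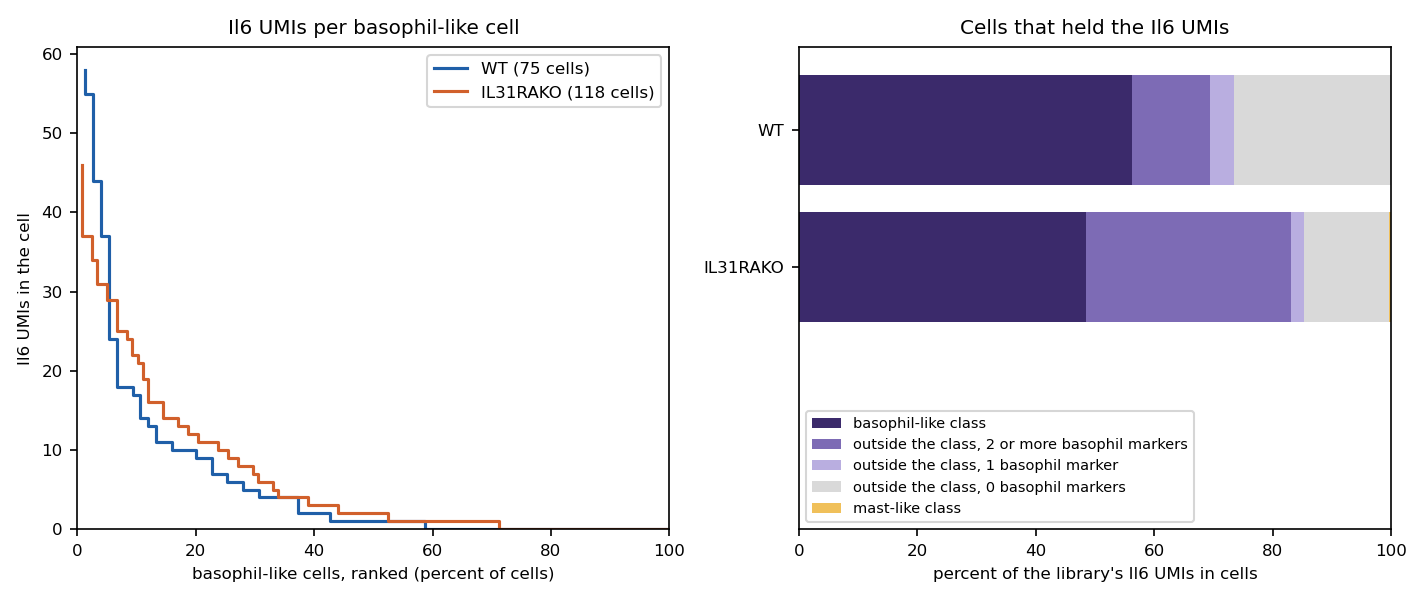
Left, Il6 UMIs in each basophil-like cell, ranked from the highest, against the percent of cells, for 75 WT (blue) and 118 IL31RAKO (orange) cells. Right, percent of each library's Il6 UMIs held by the basophil-like class and by cells outside it with 2 or more, 1 or 0 basophil markers and by mast cell-like cells. The basophil-like class held 56.2% in WT and 48.5% in IL31RAKO.

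Basophil-like cells with and without an Il6 UMI were compared within each library, as a description, since the cells with Il6 were also somewhat deeper (medians of 2764 against 2326 UMIs in WT and 2625 against 2411 in IL31RAKO). Tnfaip3 was 1151 CPM [972, 1354] in the 44 WT cells with Il6 and 639 [468, 853] in the 31 without. In IL31RAKO it was 1029 [902, 1169] in 84 cells with Il6 and 590 [438, 778] in 34 without. The Tnfaip3 intervals were apart in both libraries. Tnf was 560 CPM [437, 706] with and 348 [225, 513] without Il6 in WT, and 386 [310, 476] and 224 [135, 349.96] in IL31RAKO, with intervals that overlapped in both. Nfkbia did not keep one order: it was 9179 with and 8230 without Il6 in WT, and 11167 with and 12679 without in IL31RAKO.

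Nfkbia encodes IkB-alpha, the inhibitor that is resynthesised after each round of activation. Basophil-like cells had 8835 CPM [8427, 9259] in WT and 11574 [11201, 11956] in IL31RAKO. Neutrophil-like cells came next, with 6058 [5801, 6323] and 3946 [3853, 4041], and then regulatory T cell-like cells, with 2076 and 2153. The intervals of these 3 classes did not overlap in either library. cDC1-like cells, the dendritic cells marked by Xcr1, were lowest, at 228 and 260.5. Free RNA was at 1138 and 900.05 CPM, above 8 of the 13 classes in WT and 6 in IL31RAKO.

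Nfkbiz encodes IkB-zeta, a nuclear protein that acts on secondary response genes such as Il6. It was 1579.9 CPM [1410, 1765] in WT and 1964 [1813, 2125] in IL31RAKO basophil-like cells. Neutrophil-like cells followed, at 963 [863, 1073] and 776 [736, 819], 4.80-fold and 3.79-fold above the class after them. Nfkbid encodes IkB-NS, a nuclear relative of IkB-zeta. It was 729.6 CPM [616, 859] and 546 [467, 634] in basophil-like cells, and 388 [325, 459] and 244 [221, 268] in neutrophil-like cells. The 3 IkB-family genes thus shared the same first 2 classes in both libraries, with intervals apart from the class below.

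Tnfaip3 encodes A20, which edits ubiquitin chains on receptor complexes and so ends the signal. Its order was flatter. Basophil-like cells had 966 CPM [834, 1113] in WT and 911 [809, 1023] in IL31RAKO. A further 6 classes in WT, among them CD8 T cell-like (496 CPM) and other T cell-like (485), lay above 300 CPM, and neutrophil-like cells were next after basophil-like cells in WT (527) but below 5 T cell classes in IL31RAKO (310). Dendritic, Langerhans cell-like and monocyte-like cells were at 49.8 to 134 CPM in WT and 49.2 to 127 in IL31RAKO, below the free-RNA levels of 268 and 279.

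Rel and Nfkb1, the subunit genes, followed another order. Rel, which encodes c-Rel, was highest in Langerhans cell-like cells (128 CPM [112, 144] in WT and 143 [123, 164] in IL31RAKO), next in regulatory T cell-like cells (120.1 and 118) and then in cDC2-like cells (104 and 99.4). Neighbours in that order overlapped. Mature dendritic cell-like cells, marked by Ccr7 and Fscn1, had more Rel, 380 CPM [314, 456] and 291 [245, 343], but were too few to be compared (42 and 58 cells). Nfkb1, which encodes p105, the precursor of p50, was highest in CD8 T cell-like (231 and 218 CPM), regulatory T cell-like (213 and 218) and other T cell-like cells (196 and 204), and neighbours in that order overlapped. Basophil-like cells were near the bottom of the Rel order, at 25.2 CPM on 5 UMIs in WT and 34.9 on 11 in IL31RAKO.

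Bcl2a1a encodes a BCL2-family protein that protects granulocytes from death. It was highest in neutrophil-like cells, at 515 CPM [442, 596] in WT and 151 [133, 170] in IL31RAKO, and then in Langerhans cell-like (91.5 and 84.8) and dermal gamma-delta T cell-like cells (82.2 and 80.4). Mature dendritic cell-like cells reached 498 and 511. Basophil-like cells held 0 UMIs in both libraries, with upper interval bounds of 18.6 and 11.7 CPM. Bcl2a1a has close paralogs, Bcl2a1b and Bcl2a1d, between which reads can be split, so its own level is uncertain. Promoter windows were laid against each other without gaps. Bcl2a1a and Bcl2a1b matched at 254 of 256 overlapping bases, and Bcl2a1d matched Bcl2a1a at 199 of 300 and Bcl2a1b at 187 of 256. The Bcl2a1d window lacks a short repeated stretch that Bcl2a1a and Bcl2a1b hold, so its ungapped counts understate its likeness to them.

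Between the genotypes, 95 of the 117 pairs of a gene and a class had enough UMIs. There were 2 past the fold upward and 11 downward. Over all genes and the same classes, 2.69% of pairs were higher and 2.95% lower, and among the 95 pairs the shares were 2.11% and 11.6%. Of the 11 lower pairs, 5 were in neutrophil-like cells and 2 in Langerhans cell-like cells, and the other 4 lay in 4 further classes. Over these classes no gene was past the fold in opposite directions.

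In neutrophil-like cells (241 WT and 1061 IL31RAKO cells) all 8 genes with enough UMIs had a lower level in IL31RAKO, with a median log2 ratio of -0.65 against -0.08 over all 3539 genes. Of the 8, 5 were past the fold, where 5.71% of all genes were lower and 2.8% higher by the same rule. Bcl2a1a was 515 CPM in WT and 151 in IL31RAKO, a ratio of 0.293 [0.242, 0.357]. Tnfaip3 was 527 and 310, a ratio of 0.588 [0.496, 0.699]. Nfkbid was 388 and 244, a ratio of 0.629 [0.517, 0.770]. These 3 and Nfkbia, at 6058 and 3946 with a ratio of 0.651 [0.620, 0.684], had intervals below 1 under all 8 alternatives.

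Tnf was thinner, with 30 UMIs in WT and 94 in IL31RAKO: 86.8 CPM [58.6, 124] and 54.2 [43.8, 66.3], a ratio of 0.624 [0.410, 0.976]. The 3 genes not past the fold were Nfkbiz (0.806 [0.714, 0.911]), Nfkb1 (0.669 [0.471, 0.968]) and Rel (0.926 [0.624, 1.41]). The share of neutrophil-like cells with a Nfkbia UMI was 97.1% in WT and 89.0% in IL31RAKO, and thinned to 1000 UMIs it was 94.4% and 86.4%. The thinned shares leave out the 81 WT and 266 IL31RAKO cells under 1000 UMIs. Over all neutrophil-like cells the median cell held 7 Nfkbia UMIs in WT and 4 in IL31RAKO, at medians of 1216 and 1274 UMIs in all.

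The number of genes past the fold in neutrophil-like cells was 5, and it was 3 with each class scaled by its median gene ratio and 2 with 1 more marker in the gate, where the Nfkbia ratio was 0.675 and the Nfkbid ratio 0.702. The Tnf call was lost in 6 of the 8 alternatives, and with 2 more markers in the gate the ratio was 2.55 [0.655, 21.8] on 2 WT UMIs. The Bcl2a1a ratio was 0.582 [0.376, 0.931] in that same gate (76 WT and 456 IL31RAKO cells).

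Other measures moved in this class too. S100a8, a calprotectin gene abundant in neutrophils, was 29492 CPM in WT and 42854 in IL31RAKO, and 4 of the 8 neutrophil markers were higher in IL31RAKO. The 10 macrophage markers summed to 431 and 1064 CPM, all 10 higher in IL31RAKO, with 2 of them at 0 in WT. The 4 T cell markers summed to 509 and 341 CPM, with 1 higher in IL31RAKO. Of 12 genes of the dissociation stress response, 10 had a lower level in IL31RAKO and 2, Fosb and Hspa1a, were past the fold. The part of these in the lower levels was not tested.

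**Figure D3:**
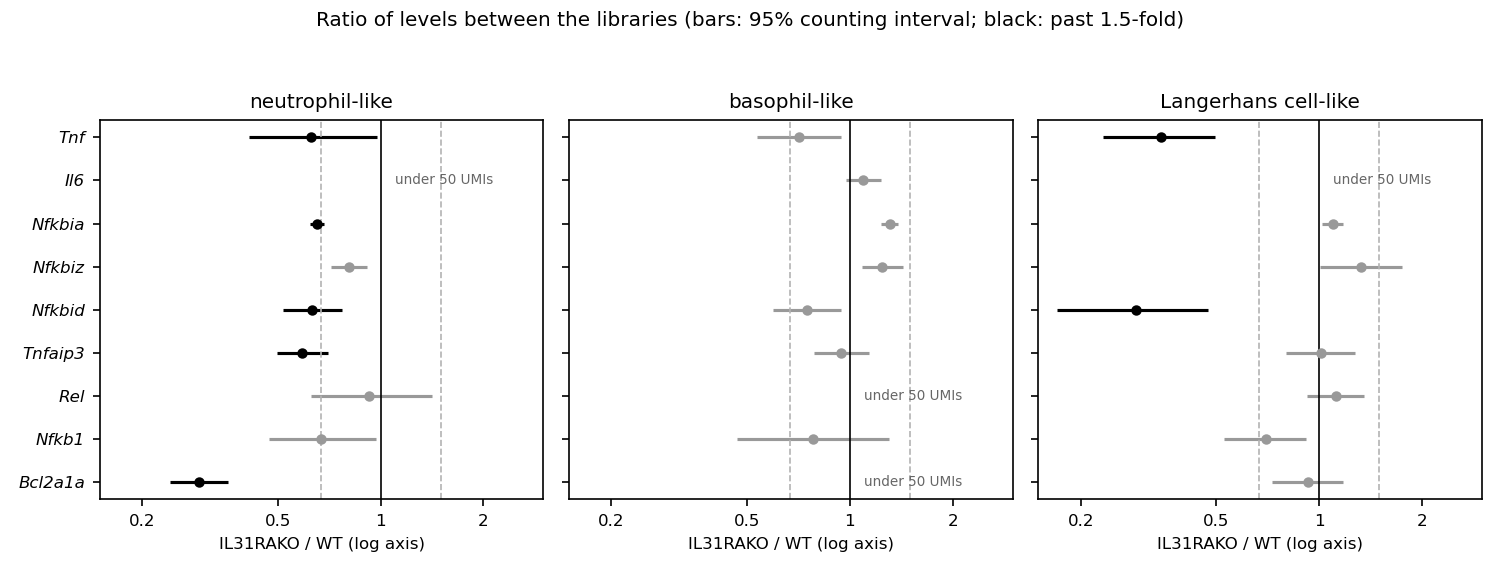
IL31RAKO/WT ratio (log axis) of each of the 9 genes in neutrophil-like, basophil-like and Langerhans cell-like cells, with 95% counting intervals, black where past 1.5-fold (dashed lines) with the interval leaving out 1. All 8 points in neutrophil-like cells lie below 1, from 0.293 for Bcl2a1a to 0.926 for Rel, while Nfkbia and Nfkbiz lie above 1 in basophil-like cells.

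The same pathway beyond the 9 genes was read from 53 further genes in 6 lists. In neutrophil-like cells 38 had enough UMIs, of which 0 were past the fold upward and 8 downward, where 2.8% of all genes were higher and 5.71% lower. The 8 were the paralogs Bcl2a1b (1328 CPM in WT and 597 in IL31RAKO, ratio 0.450) and Bcl2a1d (602 and 261, ratio 0.433), the adhesion gene Icam1 (0.393), the cytokine gene Il1a (0.389), the receptor gene Il6ra (0.549), the subunit gene Nfkb2 (0.448), the kinase gene Ikbkb (0.581) and the adaptor gene Myd88 (0.569). Not all targets were lower. Cxcl2, which encodes a neutrophil-attracting chemokine, was 25809 CPM in WT and 31703 in IL31RAKO (1.23), and Il1b was 19754 and 17456 (0.884).

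In basophil-like cells none of the 7 genes with enough UMIs was past the fold, where 4.24% of all genes were higher and 3.43% lower. Nfkbia had a ratio of 1.31 [1.24, 1.39] and Nfkbiz of 1.24 [1.08, 1.43], and both intervals were above 1 under all 8 alternatives. Tnf had a ratio of 0.710 [0.534, 0.944] and Nfkbid of 0.748 [0.596, 0.9397]. Tnfaip3 (0.943 [0.783, 1.14]), Il6 and Nfkb1 (0.778 [0.468, 1.30]) had intervals that held 1. Of the 53 pathway genes 12 had enough UMIs in this class and 0 were past the fold in either direction, with Ccl3, a chemokine gene, at 40087 CPM in WT and 45766 in IL31RAKO. The 8 neutrophil markers summed to 413 and 784 CPM in these cells, and Egr1, a stress-list gene, was 1122 and 2402. The 4 T cell markers summed to 498 and 387 CPM, with 0 higher in IL31RAKO. The part of all these genes was not tested.

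In Langerhans cell-like cells, the epidermal dendritic cells (207 WT and 126 IL31RAKO cells), Tnf and Nfkbid were past the fold downward and no gene upward, where 2.95% of all genes were lower and 3.96% higher. Tnf was 78.8 CPM [66.9, 92.2] in WT and 27.1 [19.0, 37.3] in IL31RAKO, a ratio of 0.343 [0.233, 0.494]. Of the 155 WT Tnf UMIs 38 were in 1 cell, and without the top cell of each library the ratio was 0.296 [0.183, 0.463]. Nfkbid was 50.3 [40.9, 61.25] and 14.6 [8.93, 22.6], a ratio of 0.291 [0.1702, 0.473]. Both IL31RAKO levels lay below free RNA (42.1 CPM for Tnf and 68.4 for Nfkbid). The WT levels lay above it (38.2 and 42.5), that of Nfkbid only slightly, with an interval that held the free-RNA level.

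Of the other 6 genes tested in this class, 2 had an interval above 1 (Nfkbia and Nfkbiz), 1 had it below 1 (Nfkb1, with a ratio of 0.697) and none was past the fold. Nfkbia was 885 and 969 CPM (1.09 [1.02, 1.18]), Tnfaip3 92.0 and 92.9 (1.01 [0.798, 1.27]) and Rel 128 and 143 (1.12 [0.922, 1.35]). With 1 more marker in the gate (92 and 67 cells) the Tnf ratio was 0.657 [0.417, 1.02] and no longer past the fold, and the Nfkbid ratio was 0.554 [0.314, 0.948]. All 12 stress genes had a lower level in IL31RAKO here and 7 were past the fold, among them Fos (2295 CPM in WT and 1318 in IL31RAKO), Jun (718 and 367) and Hspa1a (219.5 and 118). The 8 neutrophil markers summed to 145 CPM in WT and 423 in IL31RAKO, with 7 higher in IL31RAKO. The 10 macrophage markers summed to 1876 and 2346, with 9 higher, and the 4 T cell markers to 212 and 129, with 0 higher. The part of these in the lower Tnf and Nfkbid was not tested.

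Nfkbiz was the gene past the fold upward, in 2 T cell classes. In epidermal-type T cell-like cells, marked by Cd7 and Avil, it was 28.0 CPM [20.04, 38.2] in WT and 62.0 [45.8, 81.9] in IL31RAKO, a ratio of 2.21 [1.43, 3.44], where 2.21% of all genes were higher and 1.74% lower. In dermal gamma-delta T cell-like cells it was 53.3 [46.4, 61.0] and 93.5 [76.1, 114], a ratio of 1.75 [1.37, 2.23], where 3.86% of all genes were higher and 6.22% lower. In the other 3 T cell classes the ratio was under 1.5, at 1.31 [1.12, 1.52] in CD8 T cell-like, 1.37 [1.22, 1.53] in other T cell-like and 1.32 [1.15, 1.52] in regulatory T cell-like cells. All 5 intervals were above 1.

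Nfkbiz in free RNA stood at 119 CPM in WT and 100.005 in IL31RAKO. Both libraries of the epidermal-type, dermal gamma-delta and CD8 classes lay below it, and the regulatory T cell class lay above it in both (155 and 205 CPM). With free RNA subtracted the ratio was 2.02 in dermal gamma-delta and 3.22 in epidermal-type T cell-like cells. A neutrophil transcript was higher in the same classes. S100a8 was 28.4 and 166 CPM in CD8 T cell-like, 27.7 and 128 in dermal gamma-delta, 79.9 and 128 in epidermal-type, 45.9 and 181 in other and 38.5 and 138 in regulatory T cell-like cells, in WT and IL31RAKO in turn, and 514 and 632 in free RNA. Its part in the Nfkbiz ratios was not tested.

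**Figure D4:**
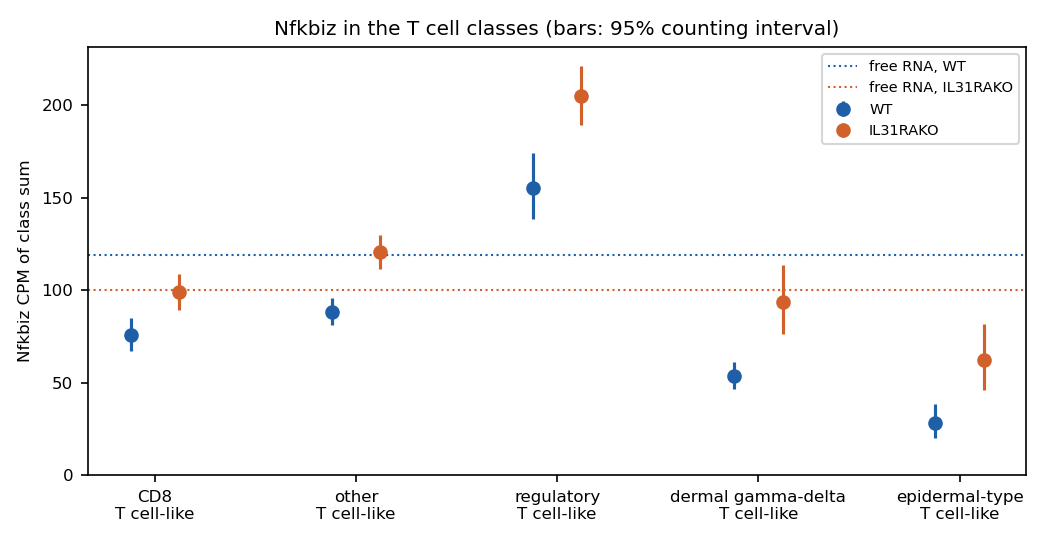
Nfkbiz level (CPM of the class sum) in the 5 T cell classes, WT in blue and IL31RAKO in orange, with 95% counting intervals and the free-RNA level of each library as a dotted line. The IL31RAKO point is above the WT point in each class, and in 3 classes both lie below free RNA.

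The 4 remaining pairs past the fold were single genes, all lower in IL31RAKO. Rel in cDC1-like cells was 46.1 CPM [34.2, 60.8] in WT and 25.2 [19.6, 31.9] in IL31RAKO, a ratio of 0.546 [0.374, 0.802], where 2.38% of all genes were lower and 2.64% higher. Nfkbid in macrophage-like cells was 39.1 [33.0, 46.0] and 25.7 [22.8, 28.9], a ratio of 0.658 [0.537, 0.808], where 2.31% were lower and 2.33% higher, and it kept this under all 8 alternatives. Both of its levels lay below free RNA. Tnfaip3 in fibroblast-like cells was 153 [110, 206] and 75.1 [49.9, 109], a ratio of 0.492 [0.294, 0.813] on 42 and 28 UMIs, where 6.44% were lower and 8.72% higher. Bcl2a1a in CD8 T cell-like cells was 11.3 [8.19, 15.1] and 5.95 [3.81, 8.86], a ratio of 0.528 [0.307, 0.888] on 44 and 24 UMIs, where 2.17% were lower and 1.91% higher.

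These 4 rest on low levels. Of their levels in WT and IL31RAKO, only that of Rel in WT (46.1 CPM against 42.5 in free RNA) lay above free RNA. Its interval [34.2, 60.8] held that free-RNA level. The fibroblast-like call was lost in 3 of 8 alternatives (0.709 with doublets removed), the CD8 call in 3 (1.08 [0.739, 1.601] with 2 more markers in the other gates, since the CD8 list holds only 2 markers and its own minimum could not be raised) and the cDC1 call in 2 (0.721 with 1 more marker). By contrast, no gene was past the fold in 4 further classes. Of all genes, 1.65% were higher and 2.27% lower in cDC2-like, 2.42% and 2.75% in monocyte-like, 2.4% and 2.69% in other T cell-like and 2.29% and 1.76% in regulatory T cell-like cells.

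Across the 13 classes the 53 pathway genes were counted by role. Of 200 tested pairs with target genes 33 were higher and 10 lower, led by Cxcl2 (higher in 7 classes), Ptgs2 (5) and Il1b (4), where 2.69% of all pairs were higher and 2.95% lower. Cxcl2 and Il1b are abundant in neutrophil-like cells (25809 and 19754 CPM in WT), and S100a8 was higher in IL31RAKO in each T cell class where Cxcl2 was, as in CD8 T cell-like cells (Cxcl2 65.8 and 169 CPM, S100a8 28.4 and 166). Its part in these counts was not tested. The other lists are read against the same shares of all pairs. For the adaptors and kinases 0 of 93 pairs were higher and 3 lower. For the other feedback genes 4 of 102 were higher and 3 lower. For the other IkB-family genes 4 of 30 were higher and 1 lower, with Bcl3 higher in 3 classes. For the other ligands and receptors 2 of 58 were higher and 7 lower, and for the other subunits 0 of 33 were higher and 2 lower. Ltb, a ligand gene of the same family as Tnf, was lower in 4 classes.

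Genes with the most similar levels over the 26 sums of 13 classes and 2 libraries were ranked by Pearson's r of log2(CPM + 10) among 10304 genes. The points of 1 library share its depth and free RNA, and each class enters once per library, so r is a description. For Il6 the nearest were Fcer1a (0.983), Cd200r3, Gata2, Ms4a2 and Mcpt8, all 5 of them genes that chose the basophil-like class. For Nfkbia they were Zc3h12a (0.945), Cks2, Plk3, Nfkbid (0.937) and Junb, and for Nfkbiz Ccl3 (0.939), Ptgs2, Hdc, Ccnl1 and Osm. For Tnfaip3 they were Dgat1, Vps37b, Nedd9, Il18r1 and Hcst.

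For 4 further genes they were Slc2a3 (0.949) and Il18rap with Nfkbid, Akap13 (0.899) and Stk26 with Nfkb1, Rtn4ip1 (0.852) and P2ry13 with Bcl2a1a, and Ubl3 (0.834) and Grb2 with Rel. Among the 9 genes themselves Nfkbia and Nfkbid were the nearest pair at 0.937, and Nfkbia and Nfkbiz followed at 0.859. Rel was apart from the IkB-family genes, with r of 0.158 to Nfkbia and 0.017 to Nfkbiz, and Bcl2a1a had r of -0.001 to Tnf.

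By the GENCODE vM21 annotation of GRCm38, the build named mm10 in the submitters' processing notes, Tnf lies on chromosome 17 (35199381 to 35202007, minus strand) and Il6 on chromosome 5 (30013114 to 30019981, plus strand). The IkB-family genes lie on chromosomes 12 (Nfkbia, 55489410 to 55492647, minus strand), 16 (Nfkbiz, 55811375 to 55838899, minus strand) and 7 (Nfkbid, 30421732 to 30428746, plus strand). Tnfaip3 lies on chromosome 10 (19000910 to 19015657, minus strand). Rel lies on chromosome 11 (23736847 to 23770970, minus strand) and Nfkb1 on chromosome 3 (135584655 to 135691547, minus strand). Bcl2a1a lies on chromosome 9 (88956900 to 88962419), between Bcl2a1d (88723285 to 88731914) and Bcl2a1b (89199209 to 89207827).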

How the data were processed

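The authors deposited raw UMI counts per gene and barcode for 2 libraries, not normalised and with empty droplets included. Cell Ranger 3.1, Seurat 3.2.2 and the build mm10 are named in the submitters' processing notes, with no role. From these counts, barcodes with 500 or more UMIs, 250 or more genes and under 10% mitochondrial UMIs were kept. Cells were assigned to 19 classes by numbers of detected marker genes, which rebuilds the cell types and need not match the study's own. The minimums were set after seeing how often markers were detected. The markers, the 9 genes and the pathway and stress lists were chosen with earlier results of these data known. All 9 genes are named. Other genes are named as the 5 (or 2) nearest by correlation among genes with 200 or more UMIs, as list members past the fold, or, for a few contrasts, after their values were seen. The genes nearest to Tnf are not reported here.

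Poisson intervals served for levels, conditional binomial intervals for ratios and Clopper-Pearson intervals for shares, computed with scipy 1.17.1 on Python 3.11.15. Only the ratio intervals and the fold rule were run on simulated counts. Those counts held counting error alone, as the interval assumes, so the run checks the computation. It cannot show how the intervals fare where UMIs are clustered in a few cells. Doublets were scored with Scrublet in scanpy 1.11.5 for 1 alternative. The alternatives were scaling by the median gene ratio, 1000 or more UMIs, under 5% mitochondrial UMIs, doublets removed, 10% free RNA subtracted, 1 more marker per gate, the cell with the most UMIs left out, other minimums and a smaller fold. A gate with 2 more markers was added after seeing the data. In both stricter gates all classes are redrawn, so a class can also gain cells, and the minimums of CD8 T cell-like and epidermal-type T cell-like cells stay, since their lists hold no further marker.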

Additional observations from a re-analysis of the deposited data

Results flagged for a closer look

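Nfkbia and Nfkbiz stand out because their intervals lie on opposite sides of 1 in their 2 leading classes. Nfkbia had an IL31RAKO/WT ratio of 1.31 in basophil-like and 0.651 in neutrophil-like cells, and Nfkbiz of 1.24 and 0.806. Basophil-like cells were not alone. The Nfkbia interval was also above 1 in macrophage-like (1.06), Langerhans cell-like (1.09), dermal gamma-delta (1.12), other T cell-like (1.19), monocyte-like (1.27) and epidermal-type (1.31) cells. The Nfkbiz interval was above 1 in Langerhans cell-like cells and each T cell class. Neutrophil-like cells were the only compared class with either interval below 1. The difference between the 2 leading classes was not tested, since there is 1 library per genotype.

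Il6 also appeared in cells left out of every class because they passed the gates of more than 1 lineage. In these mixed cells it was 14.2 CPM (102 UMIs in 784 cells) in WT and 43.2 CPM (462 UMIs in 1193 cells) in IL31RAKO. Of the IL31RAKO UMIs 416 lay in 36 cells with 3 or more basophil markers, and 87 lay in 1 cell. In WT 55 of the UMIs lay in 20 such cells.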

How the results depend on the processing

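No paired analysis was possible because each genotype is a single pooled library. Of the 13 ratios past the fold, 13 stayed so with 1000 or more UMIs per barcode, 12 each with under 5% mitochondrial UMIs, free RNA subtracted and the top cell left out, 11 with median-ratio scaling, 9 without doublets, 7 with 1 more marker per gate and 6 with 2 more. The count of pairs higher in IL31RAKO, 2, was 6 with 1 more marker, 6 with 2 more and 9 with the smaller fold. The count of pairs lower, 11, was 7 with 1 more marker and 17 with the smaller fold. The count lower in neutrophil-like cells, 5, was 3 with median-ratio scaling and 2 with 1 more marker. With 2 more markers 3 of the 13 ratios past the fold changed side: Tnf in neutrophil-like cells was 2.55, Nfkbiz in dermal gamma-delta T cell-like cells was 0.0 (1 IL31RAKO cell left), and Bcl2a1a in CD8 T cell-like cells was 1.08. Ratios not past the fold changed side too, such as Nfkbia in dermal gamma-delta T cell-like cells (1.12, then 0.110 with 1 IL31RAKO cell) and Nfkb1 in Langerhans cell-like cells (0.697, then 2.22 on 3 and 2 UMIs). The cause was not tested. The basophil-like class was highest for 6 genes in both libraries under the 7 alternatives run; median-ratio scaling acts within a class and gives no order. Low counts limit Tnf, Rel and Bcl2a1a outside their leading classes, and differences between mice cannot be told apart from differences between genotypes.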
